A study of Homo sapiens with 6 samples.

Results

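The genes described here are 10 secreted signals of inflammation, chosen by symbol: the interleukin-6 (IL-6) family cytokines IL6, IL11 and LIF, the IL-1 family cytokine IL1B, the CXC chemokines IL8 (now named CXCL8), CXCL1, CXCL2 and CXCL3, and the colony-stimulating factors CSF2 and CSF3. All 10 are among the 23228 genes listed in the count tables, and all 10 had enough reads to be tested. The study sequenced RNA of MDA-MB-231, a human cell line established from a triple negative breast cancer (TNBC), with 3 replicates of cells that stably express a control shRNA without a target and 3 replicates of cells that stably express a PELP1 shRNA (PELP1-KD). Both groups were made by lentiviral delivery and selected with puromycin, both were grown in RPMI medium with 10% fetal bovine serum, and each carries a single shRNA construct. The sources used here do not say whether the replicates of a group were selected or cultured separately, so each p-value measures the spread between these samples, which may be technical.

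Tumor cells of the basal type, MDA-MB-231 among them, are known to secrete such cytokines themselves. IL-6, IL-11 and LIF act through receptors that share the gp130 chain, encoded by IL6ST, and signal through JAK kinases to STAT3. CXCL1, CXCL2, CXCL3 and IL-8 attract neutrophils through the receptors CXCR1 and CXCR2, and G-CSF (CSF3) and GM-CSF (CSF2) drive the production and activation of granulocytes and macrophages. Transcription of these genes is classically driven by NF-κB, AP-1 and C/EBP factors, their mRNAs are short-lived because of AU-rich elements in the 3′ untranslated region, and PELP1 has been described as a coregulator of NF-κB and STAT3.

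The count tables place 17304864 to 23132102 reads on genes in each sample. PELP1 itself had 968, 1274 and 1069 reads in controls 1 to 3 against 557, 637 and 712 upon knockdown. Its log2FC, the log2 fold change of PELP1-KD against control, was -0.97 (SE 0.055, adjusted p-value 1.48e-11), where each SE and adjusted p-value is that of the edgeR fit over all tested genes. Of all tested genes 22.7% were higher and 24.2% lower at an adjusted p-value below 0.05. These shares are the background for each marker list that follows. Of 8 genes listed as marking this line, all were tested, with 1 higher, 6 lower and a median log2FC of -0.21. Vimentin (VIM), a mesenchymal marker among them, had between 35291 and 51918 reads and fell (log2FC -0.21, adjusted p-value 7.19e-06). CD44 fell by 0.55 on the log2 scale, and SPARC rose from between 86 and 104 reads to between 267 and 372. Of 6 luminal or epithelial genes the hormone receptor genes ESR1 and PGR had at most 2 reads and CDH1 at most 4. The other 3 were detected, GATA3 with 114 to 190 reads, ERBB3 with 76 to 118 and FOXA1 with 0 to 26, and FOXA1 fell (log2FC -2.37, adjusted p-value 5.1e-04). Immune cells, which also make these cytokines, left little trace: of 13 marker genes 2 were tested and 0 were called, the leukocyte marker PTPRC had 0 reads in every replicate, and the summed level of the list was between 3.72 and 4.31 CPM (counts scaled by TMM to a common library size) in control and between 3.95 and 4.84 CPM in PELP1-KD cells. Of 9 marker genes of fibroblasts and endothelial cells 4 were tested, and PDGFRB, COL1A1 and VWF rose while KDR fell. PDGFRB went from between 238 and 386 reads to between 878 and 1051. VWF was low, with 1, 6 and 0 reads in the controls and 12, 20 and 16 upon PELP1-KD. KDR had 41, 69 and 35 reads against 22, 25 and 32. The summed level of the 9 genes was between 22.1 and 27.6 CPM in control and between 64.2 and 69.4 CPM in PELP1-KD cells. The fibroblast marker DCN had 0 reads in every replicate and COL3A1 had between 0 and 3. The part of these genes in the cytokine results was not tested.

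Upon PELP1-KD, 6 of the 10 genes rose, 1 fell and 3 were not called at an adjusted p-value below 0.05. The genes that rose were CSF2, IL11, CXCL1, CSF3, IL8 and IL6, and the gene that fell was IL1B. CXCL2, CXCL3 and LIF were not called. Of all 12796 tested genes, 22.7% were higher and 24.2% were lower under the same rule, or 2904 and 3103 genes. With library totals in place of TMM, 3817 genes were higher and 2418 lower, and the members' counts were again 6 and 1. With a log2FC beyond 1 as well, CSF2 and IL11 were higher and 0 members were lower, against 1.9% and 1.34% of the tested genes. The median log2FC was 0.52 over the 10 members and 0.0014 over all tested genes. The members were chosen with earlier results of these data known, so their shares and median beside those of all genes are descriptive only. The values of the groups were apart in 8 of the 10 genes, and in 55% of the tested genes.

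**Figure D1:**
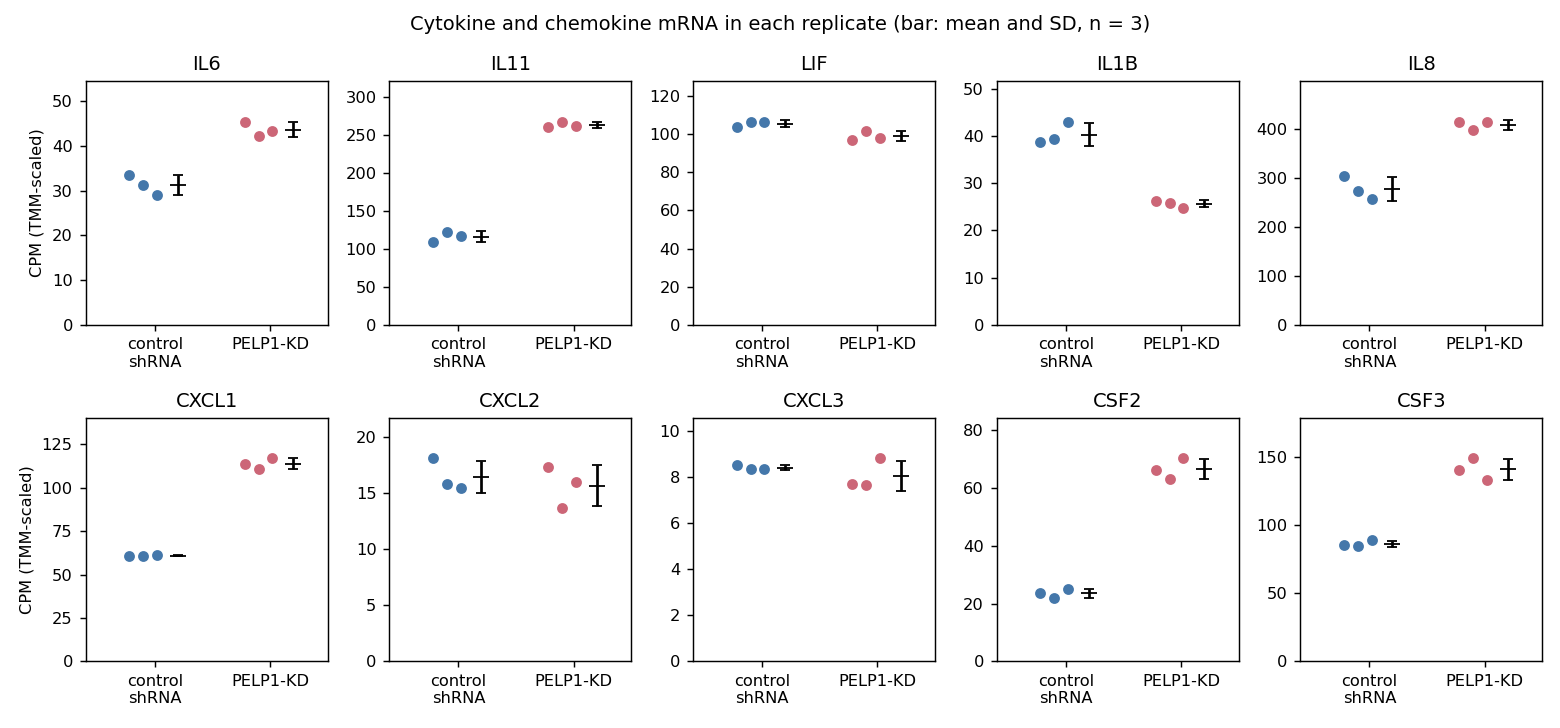
TMM-scaled CPM of each of the 10 genes (vertical axis, from 0) in the 3 control shRNA replicates (blue) and the 3 PELP1-KD replicates (red), with the mean and SD beside each group. IL6, IL11, IL8, CXCL1, CSF2 and CSF3 sit higher in every PELP1-KD replicate, IL1B sits lower in every one, and CXCL2 and CXCL3 overlap.

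**Figure D2:**
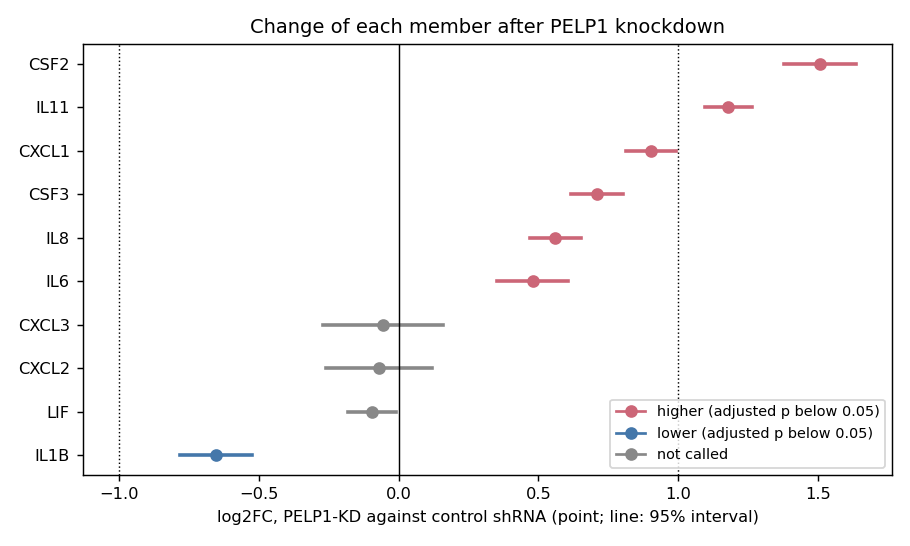
log2FC of each gene in PELP1-KD against control cells (horizontal axis), with its 95% interval from the edgeR fit and dotted lines at a log2FC of -1 and 1. The values run from -0.65 for IL1B to 1.51 for CSF2, and the intervals of CXCL2 and CXCL3 cross 0.

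Together the 10 genes took between 0.0740% and 0.0766% of the reads counted on genes in control cells and between 0.120% and 0.121% in PELP1-KD cells. To compare levels between genes, the CPM were divided by the length of each gene's exons, which gives RPKM. In control cells IL8 had the highest level, at 122 RPKM ± 10.6 (SD, n = 3), followed by CXCL1 at 47.0 RPKM ± 0.284, IL11 at 43.5 RPKM ± 2.67, CSF3 at 38.9 RPKM ± 1.11, CSF2 at 29.9 RPKM ± 1.94, LIF at 26.6 RPKM ± 0.417, IL6 at 15.1 RPKM ± 1.05, IL1B at 13.0 RPKM ± 0.771, CXCL2 at 11.0 RPKM ± 0.949 and CXCL3 at 3.78 RPKM ± 0.0492. In PELP1-KD cells IL8 was again highest at 179 RPKM ± 4.37 (SD, n = 3), and IL11 stood second at 98.7 RPKM ± 1.39. CXCL1, at 87.9 RPKM ± 2.36, and CSF2, at 84.5 RPKM ± 4.50, overlapped between replicates. CXCL3 was the lowest of the 10 in both groups. The order of close neighbours rests on the length taken for each gene: with the longest transcript in place of all exons, CSF3 stood above IL11 and IL1B above IL6 in control cells, at 51.6, 51.0, 24.7 and 20.5 RPKM.

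Of the IL-6 family, IL11 changed most. IL-11 is a gp130 cytokine known for its action on bone and on stromal cells. Its level was 109, 123 and 117 CPM in controls 1, 2 and 3 and 261, 268 and 262 CPM upon PELP1-KD. Every PELP1-KD replicate lay far above every control replicate. The log2FC of IL11 was 1.18 (SE 0.041, adjusted p-value 4.41e-15), a 2.26-fold rise with a 95% interval from 2.14 to 2.40. Among all tested genes it had rank 19 by p-value.

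IL6 itself, the founding cytokine of the family and an inducer of the acute-phase response, rose less. It had 33.4, 31.3 and 29.1 CPM in the controls and 45.4, 42.2 and 43.3 CPM upon PELP1-KD, without overlap. Its log2FC was 0.48 (SE 0.061, adjusted p-value 1.9e-06), a 1.39-fold rise with a 95% interval from 1.28 to 1.52. In the GENCODE annotation 15.3% of the 50-base words of its transcripts also lie in transcripts of an overlapping gene, AC073072.1. Whether the authors' annotation held that gene, and how strand was treated, is not given. The effect of the overlap on the IL6 counts is therefore not known.

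LIF, which acts through LIFR and gp130, had 104, 107 and 107 CPM in the controls and 96.9, 102 and 98.1 CPM upon PELP1-KD. Every PELP1-KD replicate lay below every control replicate, but the difference was small, with a log2FC of -0.10 (SE 0.041, 95% interval from -0.18 to -0.01) and an adjusted p-value of 0.0612 by edgeR. It passed the threshold without control replicate 1 (adjusted p-value 0.0316) and without PELP1-KD replicate 2 (0.0395), and over all alternatives the adjusted p-value was between 0.0316 and 0.367. Of the 50-base words of LIF, 4.28% are shared with genes that overlap it, LIF-AS1 and AC004264.1.

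Within a sample, the ratio of the reads on 2 genes does not depend on how libraries are scaled. The reads on IL11 were between 1.05 and 1.15 times those on LIF in the controls and 2.69, 2.63 and 2.67 times upon PELP1-KD. The ratio of IL11 to IL6 was 3.74 ± 0.422 (SD, n = 3) in control and 6.05 ± 0.302 in PELP1-KD cells, and that of LIF to IL6 was 3.39 ± 0.281 and 2.27 ± 0.141. In each of these pairs the groups did not overlap. Over 7 pairs of genes of the same family, a two-sided exact permutation test of the log2 ratio gave p = 0.1 (0.117 after Benjamini-Hochberg adjustment) for 6 pairs, the lowest value possible with 3 samples in each group, so that no pair could reach 0.05.

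Of 13 other ligands and receptors of the IL-6 family 9 were tested, 4 were higher and 1 was lower, with a median log2FC of 0.26. Beside this list and those below, the shares over all tested genes were 22.7% higher and 24.2% lower. The gene that fell was IL6ST, the shared gp130 chain, from 381 CPM ± 22.2 to 266 CPM ± 9.56 (SD, n = 3), a log2FC of -0.52 (SE 0.039, adjusted p-value 8.81e-10). LIFR rose by 0.42 on the log2 scale (adjusted p-value 8.42e-06) and OSMR, the oncostatin M receptor, by 0.16 (adjusted p-value 6.43e-04). The receptor of IL-6 itself, IL6R, was not called, with a log2FC of -0.18 (adjusted p-value 0.16).

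IL1B, which encodes the IL-1β precursor, was the only member that fell. It had 38.6, 39.3 and 43.0 CPM in the controls and 26.3, 25.8 and 24.8 CPM upon PELP1-KD, and the groups were well apart. Its log2FC was -0.65 (SE 0.062, adjusted p-value 3.39e-08), which is a level 0.636 times that of control cells with a 95% interval from 0.582 to 0.696. The related IL1A, which encodes IL-1α and signals through the same receptor, had 32.7 CPM ± 1.42 in control and 36.4 CPM ± 2.54 in PELP1-KD cells (SD, n = 3) and was not called, with a log2FC of 0.15 (adjusted p-value 0.052). This value lay at the threshold: 5 of 13 alternatives put it below 0.05, among them the fit without control replicate 1 (0.0267) and without PELP1-KD replicate 2 (0.0448).

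Of 21 other genes of the IL-1 axis 15 were tested, with 2 higher, 4 lower and a median log2FC of -0.12. IL1R1, the signaling receptor of IL-1, rose from 18.2 CPM ± 0.959 to 34.1 CPM ± 0.474 (SD, n = 3), a log2FC of 0.91 (SE 0.065, adjusted p-value 5.04e-10). SIGIRR, an inhibitory receptor of the same family, was low, with 34, 47 and 26 reads in the controls and 13, 14 and 19 upon PELP1-KD. Its log2FC was -1.37 (SE 0.25, adjusted p-value 1.39e-04), and that of IRAK3, an inhibitory kinase homolog, was -0.62 (adjusted p-value 2.95e-05). IL18, a cytokine of the same family, fell by 0.56 on the log2 scale (adjusted p-value 8.51e-06), and TRAF6, the ubiquitin ligase downstream of the receptor, by 0.36 (adjusted p-value 0.00305). The receptor antagonist IL1RN had 0 reads in every replicate. At these depths 3 reads, taken as the limit that a count of 0 allows, correspond to between 0.127 and 0.177 CPM, and such limits cover counting error only.

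The CXC chemokines split. IL8, the most abundant member, rose from 303, 272 and 255 CPM in controls 1, 2 and 3 to 414, 396 and 413 CPM upon PELP1-KD. The control replicates of IL8 spread more than those of the other chemokine that rose, but all lay below the PELP1-KD replicates. Its log2FC was 0.56 (SE 0.044, adjusted p-value 1.78e-09), a 1.47-fold rise with a 95% interval from 1.38 to 1.57. CXCL1, also known as GROα, had 60.5, 60.8 and 61.3 CPM in the controls and 114, 111 and 117 CPM upon PELP1-KD. Its log2FC was 0.90 (SE 0.043, adjusted p-value 9.14e-13), a 1.87-fold rise with a 95% interval from 1.76 to 1.99.

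CXCL2 and CXCL3, the close paralogs of CXCL1, did not pass the test. CXCL2 had 18.1, 15.8 and 15.5 CPM in the controls and 17.3, 13.7 and 16.0 CPM upon PELP1-KD, so the groups overlapped. Its log2FC was -0.07 (SE 0.092, 95% interval from -0.26 to 0.12, adjusted p-value 0.55). CXCL3 had 8.51, 8.32 and 8.34 CPM in the controls and 7.70, 7.64 and 8.79 CPM upon PELP1-KD, with a log2FC of -0.06 (SE 0.10, 95% interval from -0.27 to 0.16, adjusted p-value 0.682). Neither interval reaches the lower bound of CXCL1, at a log2FC of 0.81. The reads on CXCL1 were 3.72 ± 0.326 (SD, n = 3) times those on CXCL2 in control and 7.33 ± 0.756 times in PELP1-KD cells, and 7.26 ± 0.129 and 14.2 ± 0.795 times those on CXCL3. The ratio of CXCL2 to CXCL3 was 1.96 ± 0.144 in control and 1.95 ± 0.256 in PELP1-KD cells (two-sided exact permutation test, p = 0.9).

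The 3 paralogs are alike in sequence, and reads with more than 1 alignment were counted on no gene. Of the 50-base words in their transcripts, 4.81% in CXCL1, 6.01% in CXCL3 and 12.5% in CXCL2 occur in the other paralogs as well, so the counts of these genes, CXCL2 above all, leave out a part of their reads. IL8, CSF2, CSF3 and IL1B share 0 such words with any other gene, and IL11 shares 2.06%, a few words each with many genes elsewhere in the genome.

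IL8 and the CXCL1, CXCL2 and CXCL3 genes belong to 1 cluster on chromosome 4, and 8 genes of it were examined over 358.8 kb of GRCh38. In chromosomal order these are IL8, CXCL6, CXCL1, PF4, PPBP, CXCL5, CXCL3 and CXCL2. IL8, CXCL1 and CXCL5 rose, CXCL3 and CXCL2 were not called, and CXCL6, PF4 and PPBP had at most 3 reads in any replicate. CXCL5, another ligand of CXCR2, went from 5, 4 and 2 reads to 52, 59 and 74 reads, a log2FC of 3.86 (SE 0.31, adjusted p-value 2.37e-09), and had rank 5 of all tested genes by log2FC. CXCL3 and CXCL2, which were not called, lie next to each other at one end of this order, with CXCL5 beside CXCL3.

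The promoter words of these genes are shown because CXCL1, which rose, and CXCL2 and CXCL3, which were not called, carry the same NF-κB word. The RefSeq promoter table (GRCh38.p14, 250 bases before to 50 bases after each start site) holds 8 of the 10 members and has no entry for LIF and CSF3. It was searched on both strands for the NF-κB word GGANNTTCC, the AP-1 word TGANTCA, the C/EBP word TTGCNNAA and the TATA word TATAAA, which occur in 4.56%, 7.71%, 10.5% and 11.5% of its 35116 promoters. Of the 8 member promoters, 6 hold the NF-κB word, 2 the AP-1 word, 3 the C/EBP word and 1 the TATA word. Each NF-κB match is printed 5′ to 3′ on the strand of the gene with 10 bases on either side and the match in capitals.
CXCL1: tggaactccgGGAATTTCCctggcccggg
CXCL2: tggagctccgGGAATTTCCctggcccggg
CXCL3: tggagctccgGGAATTTCCctggcccggc
IL8: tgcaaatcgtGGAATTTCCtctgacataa
IL6: atcaaatgtgGGATTTTCCcatgagtctc
CSF2: ataagggccaGGAGATTCCacagttcagg
CXCL5: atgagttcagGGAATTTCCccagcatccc

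The CXCL1 stretch lies at chr4:73869305-73869333 on the plus strand, that of CXCL2 at chr4:74099254-74099282 and that of CXCL3 at chr4:74038749-74038777, both on the minus strand. Counted from 1 at the 5′ end of the 29 bases, CXCL1 and CXCL2 differ by A5G alone, CXCL1 and CXCL3 by A5G and G29C, and the 9 capitals are the same in all 3. The first capital stands at position -78 from the start site in CXCL1 and CXCL3, -77 in CXCL2, -91 in IL8 (chr4:73740468-73740496, plus strand), -72 in IL6 (chr7:22727118-22727146, plus strand), -102 in CSF2 (chr5:132073677-132073705, plus strand) and -90 in CXCL5 (chr4:73998749-73998777, minus strand). Of the 6 members with the word, CSF2, CXCL1, IL8 and IL6 rose and CXCL2 and CXCL3 were not called. The 2 members without it whose promoters were searched were IL11, which rose, and IL1B, which fell. Outside the members, only the promoters of CXCL5, PTGS2 and CCL20 were searched. These genes are among those named for a log2FC beyond 1, so their rise was fixed by the choice. No gene outside the members that fell or was not called was searched. CXCL5 holds the NF-κB word, while PTGS2 and CCL20 do not. Only exact matches to this word within the promoter window were sought. Its absence in IL11, IL1B, PTGS2 and CCL20 therefore does not mean that they lack NF-κB sites.
The AP-1 word stands in IL11 at position -96 (chr19:55370543-55370569, minus strand) and in IL8 at -137 (chr4:73740422-73740448, plus strand), again with the match in capitals.
IL11: gcagggagggTGAGTCAggatgtgtca
IL8: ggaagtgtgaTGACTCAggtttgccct

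**Figure D3:**
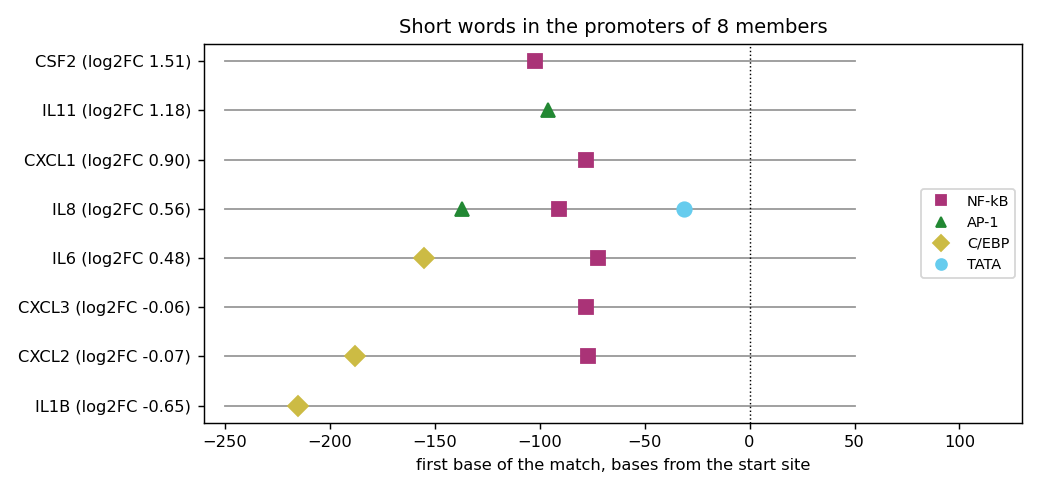
Position of the first base of each match to the NF-κB, AP-1, C/EBP and TATA words (horizontal axis, bases from the start site, which is the dotted line) in the promoters of 8 members, ordered by log2FC. The NF-κB word stands between -102 and -72 in 6 promoters, including those of CXCL2 and CXCL3, which were not called.

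The colony-stimulating factors both rose. CSF2 encodes GM-CSF, which drives granulocytes and macrophages, and lies on chromosome 5. It had 400, 498 and 443 reads in the controls and 1288, 1348 and 1653 upon PELP1-KD, or 23.7, 21.9 and 24.9 CPM against 66.1, 63.2 and 70.2 CPM. Its log2FC of 1.51 (SE 0.062, adjusted p-value 8.05e-14) was the highest of the 10 members, a 2.84-fold rise with a 95% interval from 2.60 to 3.11. CSF3 encodes G-CSF, which drives neutrophil production. It had 85.4, 84.5 and 89.2 CPM in the controls and 141, 149 and 133 CPM upon PELP1-KD, without overlap, a log2FC of 0.71 (SE 0.045, adjusted p-value 9.34e-11) and a 1.63-fold rise with a 95% interval from 1.53 to 1.75. The reads on CSF2 were 0.272 ± 0.011 times those on CSF3 in control and 0.473 ± 0.0519 times in PELP1-KD cells (SD, n = 3), and the groups did not overlap. CSF1, the macrophage factor, fell by 0.23 on the log2 scale (adjusted p-value 4.16e-04). KITLG, the stem cell factor, had a log2FC of -0.30 (adjusted p-value 0.0238), which did not pass with DESeq2 (0.0539), with library totals alone (0.0546), without control replicate 1 (0.0705) or without PELP1-KD replicate 2 (log2FC -0.19, adjusted p-value 0.155).

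CXCR1 and CXCR2, the receptors of IL-8 and the CXCL1 to CXCL3 proteins, had 0 reads in every replicate. CSF3R, the receptor of G-CSF, and CSF2RA, the ligand-binding chain of the GM-CSF receptor, had 0 counted reads as well. Reads with more than 1 alignment were counted on no gene, and the sequence that these receptor genes share with others was not examined. The 0 of CSF2RA is therefore not taken as a lack of expression. CSF2RB, the signaling chain of the GM-CSF receptor, had between 1 and 11 reads. CSF1R, the receptor of CSF1, had between 56 and 90 reads and was not called. Of 13 chemokine receptor genes 1 was tested, CCR1, with a log2FC of 0.33 (adjusted p-value 0.349). Of 22 other chemokine genes 5 were tested, 2 were higher and 0 lower. These were CXCL5 and CCL20, the ligand of CCR6, with 20, 11 and 8 reads in the controls and 31, 28 and 35 upon PELP1-KD. The log2FC of CCL20 was 1.09 (SE 0.31, adjusted p-value 0.00627), and without control replicate 2 it was 0.85 with an adjusted p-value of 0.0516. CCL2, the main monocyte chemokine, had 0 reads in every replicate.

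The changes in the machinery of NF-κB were of both signs, and all lay within a log2FC of -1 to 1. All 25 of its listed subunits, inhibitors and kinases were tested, with 5 higher and 8 lower. Over all tested genes the shares were 22.7% and 24.2%. The list had a median log2FC of -0.03 and values between -0.60 and 0.30. RELA, the main activating subunit, had a log2FC of 0.08 (adjusted p-value 0.085, and 0.00692 with library totals alone), NFKB1 one of -0.18 (adjusted p-value 0.00282) and NFKB2 one of 0.24 (adjusted p-value 6.81e-04). MAP3K14, the kinase NIK of the non-canonical pathway, fell by 0.60 on the log2 scale (SE 0.065, adjusted p-value 2.35e-07), and IKBKB, the IκB kinase subunit, by 0.36 (adjusted p-value 2.67e-05).

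Other known NF-κB targets also went both ways. Of 20 listed targets 17 were tested, 9 were higher and 4 lower, with a median log2FC of 0.13, against 22.7% and 24.2% of all tested genes. PTGS2, which encodes cyclooxygenase 2, had 1.90 CPM ± 0.413 in control and 8.96 CPM ± 0.151 in PELP1-KD cells (SD, n = 3), a log2FC of 2.24 (SE 0.14, adjusted p-value 9.88e-11). IER3, a stress-induced survival gene, rose by 0.65 on the log2 scale (adjusted p-value 1.87e-12) and LCN2, the siderophore-binding lipocalin, by 0.71 (adjusted p-value 2.26e-10). PTX3, a secreted pattern recognition protein, fell by 0.85 (adjusted p-value 1.71e-12), BIRC3, an inhibitor of apoptosis, by 0.61 (adjusted p-value 1.08e-09) and G0S2, an inhibitor of lipolysis, by 0.52 (adjusted p-value 4.53e-08).

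Of 24 JAK-STAT and SOCS genes 23 were tested, 8 were higher and 5 lower, with a median log2FC of -0.02. STAT3, which gp130 cytokines activate, rose by 0.16 on the log2 scale (adjusted p-value 8.49e-04), STAT2 by 0.49 (adjusted p-value 2.9e-06) and TYK2 by 0.20 (adjusted p-value 6.34e-04), while JAK1 fell by 0.32 (adjusted p-value 1.53e-06). CISH, a SOCS family feedback inhibitor best known as a STAT5 target, had 16, 14 and 17 reads in the controls and 38, 44 and 43 upon PELP1-KD, a log2FC of 1.24 (SE 0.24, adjusted p-value 2.70e-04). SOCS3, the feedback inhibitor of gp130, was not called, with a log2FC of -0.03 (adjusted p-value 0.735), or 0.02 with library totals alone. Of 7 C/EBP genes 5 were tested. CEBPB, first described as a nuclear factor for IL6, had 53.4 CPM ± 12.4 in control and 70.5 CPM ± 2.21 in PELP1-KD cells (SD, n = 3), a log2FC of 0.39 (adjusted p-value 0.00242, but 0.107 with DESeq2). Control replicate 1 was low, at 39.1 CPM, and without it the log2FC was 0.22 (adjusted p-value 2.4e-04). CEBPG fell by 0.31 on the log2 scale (adjusted p-value 2.95e-05).

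AU-rich elements were looked for in the 3′ untranslated region of 1 coding transcript per gene in GENCODE. The pentamer ATTTA occurs in 63.3% of 18592 genes and in all 10 members, between 5 and 10 times each. The nonamer TTATTTATT occurs in 7.25% of the genes and in 8 of the 10 members, with 6 copies in IL11, 5 in CXCL2, 3 in CXCL1 and CSF2, 2 in LIF and IL1B and 1 in IL8 and CXCL3. IL6 and CSF3 hold 0 copies. Copies are present in members that rose, in the member that fell and in those that were not called. Their relation to the changes was not tested.

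Of 15 genes for proteins that bind such elements or act on cytokine mRNA, all were tested, with 3 higher, 7 lower and a median log2FC of -0.10. KHSRP, which encodes KSRP and promotes the decay of mRNAs with AU-rich elements, fell most, from 318 CPM ± 11.4 to 176 CPM ± 4.46 (SD, n = 3), a log2FC of -0.85 (SE 0.035, adjusted p-value 8.80e-14). ZFP36L1, a decay factor of the tristetraprolin family, fell by 0.42 on the log2 scale (adjusted p-value 3.19e-08), and TIA1, a translational silencer, by 0.52 (adjusted p-value 8.77e-06). ZFP36, tristetraprolin itself, was not called, with a log2FC of -0.16 (adjusted p-value 0.23). ARID5A, which stabilizes IL6 mRNA, rose from 11.3 CPM ± 0.602 to 20.4 CPM ± 1.44 (SD, n = 3), a log2FC of 0.86 (adjusted p-value 4.86e-08), and ZC3H12A, the RNase Regnase-1 that cleaves IL6 mRNA and is counted above among the NF-κB targets, rose by 0.28 (adjusted p-value 3.69e-04). Over the union of these lists without the 10 members, 118 of 168 genes were tested, 34 were higher and 32 lower. Over all tested genes the shares were 22.7% and 24.2%.

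**Figure D4:**
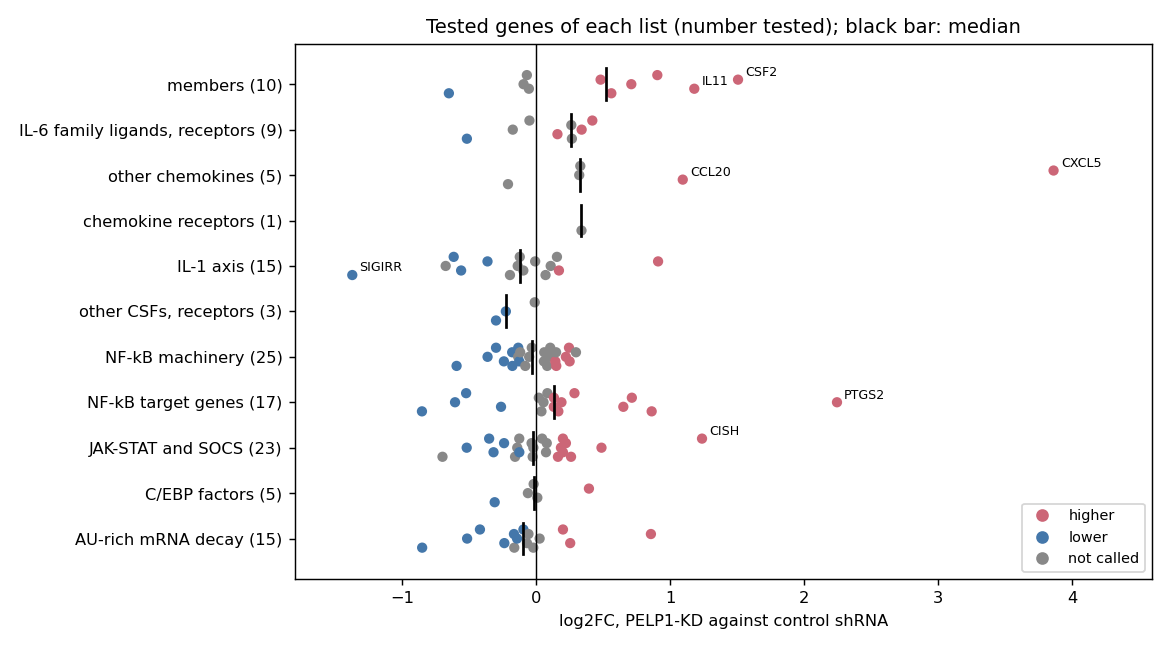
log2FC in PELP1-KD against control cells (horizontal axis) of the tested genes in the 10 members and in 10 lists of related genes, without 1 gene of the IL-6 family list that is not reported here, colored by call at an adjusted p-value below 0.05, with the median of each list as a black bar and names for genes past a log2FC of 1 as well. The members have a median of 0.52, and the NF-κB machinery and JAK-STAT lists have medians of -0.03 and -0.02.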

How the data were processed

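RNA of 3 control shRNA and 3 PELP1-KD replicates was sequenced from stranded mRNA libraries with single reads of 50 bases. The authors deposited counts, the whole number of reads per gene symbol in each replicate without normalization. The submitters' processing notes name bcl2fastq, TopHat2, SAMtools, HTSeq and the build hg19, and the versions, the annotation and the strand setting of the counting are not given in the sources used here. Of all counts, between 32.5% and 32.9% per replicate stood in the row for alignments that were not unique. Whether a read with several alignments was entered there more than once is not given. Between 7.64% and 8.19% stood in the row for no gene. These rows were kept out of library sizes and tests. The deposited counts hold 0 unmatched columns of samples, and all 6 replicates were used.

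Genes passing filterByExpr (minimum 10 counts) were scaled by TMM and tested with edgeR 4.0.16 in R 4.3.3, by its quasi-likelihood test on 2 groups with Benjamini-Hochberg adjustment over 12796 genes. Every adjusted p-value comes from this test unless another is named. A standard error (SE) is the size of the log2FC over the root of its F statistic. The study's own analysis used DESeq2, run here as an alternative (1.42.0) beside limma 3.58.1. Scripts were tested on simulated counts. Gene lengths and 3′ ends came from GENCODE release 29 on GRCh38 and promoters from RefSeq GRCh38.p14. Coordinates are of these and were not converted from hg19. IL8 was matched to CXCL8.

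The members and lists were chosen with earlier results of these data known. Named are the members, PELP1 and, per list, the genes past an adjusted p-value of 0.05 with a log2FC beyond 1, or otherwise the 2 with the lowest p-value. Of these, 1 gene of the IL-6 family list is counted but not reported here. The other genes named in the lists were chosen after their values were seen. Alternatives were RLE size factors, library totals alone, DESeq2, limma voom, no filter, at least 10 counts in every sample, each replicate left out in turn, a block on the replicate number and, for RPKM, the longest transcript.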

Additional observations from a re-analysis of the deposited data

How the results depend on the processing

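The direction of CSF2, IL11, CXCL1, CSF3, IL8, IL6 and IL1B and their side of the threshold were the same under all 13 alternatives, so the count of members that rose was 6 in each and that past a log2FC of 1 was 2. The count of members that fell was 1, but 2 with the replicate number as a block, where LIF passed with a log2FC of -0.09 and an adjusted p-value of 0.0453. With each replicate left out in turn this count was between 1 and 2. The replicate numbers did not pair the samples: deviations from the group means correlated at 0.039, 0.065 and -0.078 between same-numbered replicates, and of the control replicates only replicate 2 correlated best with its own number. The block fit called 3140 genes higher and 3335 lower. Leaving out single replicates, the log2FC of CXCL2 was between -0.14 and 0.017, above 0 without PELP1-KD replicate 2, and that of SOCS3 was between -0.099 and 0.033, above 0 without control replicate 2. SOCS3 was also above 0 with library totals alone, at 0.022. None of these values was called. With DESeq2, 2391 genes were higher and 2699 lower, and with at least 10 counts in every sample the genes past a log2FC of 1 numbered 134 higher and 106 lower, against 243 and 171, since low genes were not tested. The genes of all related lists numbered between 28 and 41 higher and between 25 and 35 lower. Leaving out a replicate gave a log2FC of PELP1 between -0.99 and -0.94. Multiply aligned reads left uncounted limit the values of CXCL1, CXCL2 and CXCL3, and may limit the count of CSF2RA. An unstated annotation and strand setting may limit those of IL6 and LIF.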
